A study of Mus musculus with 4 samples.

Results

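The CCN proteins and the YAP-TEAD pathway were followed through 10 genes, the CCN genes Ccn1, Ccn2 and Ccn4, the pathway targets and partners Ankrd1, Amotl2 and Axl, the coactivators Yap1 and Wwtr1, the DNA-binding factor Tead1 and the kinase Lats2. They were chosen by symbol, and each symbol was represented by its transcript with the highest mean RPKM (reads scaled to transcript length and to the reads of the library) over the 4 libraries. These were 10 of 12767 genes in the table, and they were listed with 18 of its 25388 transcripts. In mm10 the genes lie on 7 chromosomes, Ccn1 at chr3:145646971-145649985, Ccn2 at chr10:24595442-24598683, Ccn4 at chr15:66891369-66923201, Ankrd1 at chr19:36111965-36119844, Amotl2 at chr9:102717091-102733418, Yap1 at chr9:7931999-8004638, Wwtr1 at chr3:57455644-57575910, Tead1 at chr7:112679356-112906784, Lats2 at chr14:57689662-57746212 and Axl at chr7:25756500-25788924. All 4 libraries came from MLg cells (ATCC CCL-206), a wild-type fibroblast line of mouse lung. Every culture had been transfected with an antagomiR, which is a modified antisense oligonucleotide that binds a microRNA and blocks it.

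The groups were TGFB1 with miR-9-LOF (antagomiR against miR-9-5p, then TGFB1), TGFB1 (control antagomiR, then TGFB1), miR-9-LOF (antagomiR against miR-9-5p) and Ctr (control antagomiR). The protocol in the labels gave 60 nM of antagomiR, harvest at 24 h and 5 ng/ml of human TGFB1 for the final 4 h, whereas the series' design text gave 10 nM and 48 h, and which of these applies was not settled. Each group had 1 library, so no difference below has a replicate check, no test between groups was possible, and the intervals given cover counting error only. Reads carried no molecular identifiers, which means that the counting intervals treat each read as independent.

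CCN proteins are secreted into the matrix around cells, where they bind integrins, heparan sulphate proteoglycans and LRP receptors. YAP1 and its relative WWTR1, also called TAZ, cannot bind DNA on their own and reach their target genes through TEAD factors. The Hippo kinases LATS1 and LATS2 phosphorylate both coactivators and keep them out of the nucleus. Ccn1, Ccn2, Ankrd1, Amotl2, Axl and Lats2 are widely used readouts of YAP-TEAD activity in mammalian cells, and Ccn2 is also a long-known TGF-beta target in fibroblasts.

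TEAD factors bind the letters CATTCC, and the promoters of these genes were searched for that motif because they are grouped by this pathway. The window ran from 250 bases before to 50 bases after each RefSeq start in GRCm38.p6, both strands were read, and 7 of the 10 genes had an entry. Ccn2, Ccn4 and Tead1 had none. The letters occurred in 7 of these 7 genes, and in 8 of their 9 promoters, since Wwtr1 and Lats2 have 2 each and the second of Lats2 held none, while 14.7% of 32851 promoters of the table held them. In Lats2 the match lay from base 5 to base 10 after the start, and in the others it lay upstream. The stretches of the upstream matches follow in the gene's own direction, with CATTCC or its reverse complement GGAATG in capitals. They lie at chr3:145650063-145650108 (minus strand) for Ccn1, chr19:36119942-36120074 (minus strand) for Ankrd1, chr9:102717719-102717764 (plus strand) for Amotl2, chr9:8004712-8004757 (minus strand) for Yap1, chr3:57576021-57576066 (minus strand) for Wwtr1 and chr7:25788941-25788983 (minus strand) for Axl.
Ccn1: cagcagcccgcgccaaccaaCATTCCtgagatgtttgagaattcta
Ankrd1: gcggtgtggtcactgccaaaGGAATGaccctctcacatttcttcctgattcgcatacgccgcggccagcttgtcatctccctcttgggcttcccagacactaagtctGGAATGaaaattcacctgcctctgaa
Amotl2: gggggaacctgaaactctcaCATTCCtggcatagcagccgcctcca
Yap1: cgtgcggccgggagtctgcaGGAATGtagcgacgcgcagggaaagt
Wwtr1: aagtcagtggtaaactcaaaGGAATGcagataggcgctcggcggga
Axl: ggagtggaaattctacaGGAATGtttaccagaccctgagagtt
Ankrd1 alone held the letters in 2 places, beginning at positions -210 and -123 from its start site, and in Amotl2 they lay closest to the start among the upstream matches, at positions -65 to -60. The SMAD letters CAGAC occurred in 5 of the 7 genes, against 49.6% of all promoters, and in Ankrd1 one of the SMAD matches shared its last base with a TEAD match. The AP-1 letters TGANTCA occurred in 0 of the 7 and in 7.81% of all promoters, the SRF box in 0 and 1.63%, and the G-quadruplex pattern in 1 (Ccn1) and 18.6%. A match of letters describes the sequence and does not show that a factor is bound.

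The blocked microRNA is printed because its seed, bases 2 to 8, pairs with target transcripts.
miR-9-5p: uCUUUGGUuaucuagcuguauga
The complement of the seed, ACCAAAG, was found in the 3' UTR of 3 of the 10 genes, compared with 13.8% of 11831 genes with an annotated 3' UTR. Ccn4 had 2 matches, Ccn2 had 1 and Axl had 1. The Axl match is shown with its neighbouring bases, and its 3' UTR spans 1389 bases.
Axl site: aatgagacACCAAAGttctaacc
On the deposited scale Axl was the gene whose level moved least after miR-9-LOF (below), which did not hold with Rn45s, Mir6236 and Lars2 taken out of the library totals (0.18, compared with -0.10 for Ccn4). In the deposited values 5 of the 6 genes past the limit in that comparison, Ccn1, Ankrd1, Amotl2, Tead1 and Lats2, held 0 matches. Most genes hold none, since 13.8% of all genes with an annotated 3' UTR held a match. Whether a match bears on the change of a gene was not tested. The level of miR-9 itself was not analysed here.

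The 10 genes covered a wide range of expression per kilobase. Ccn2 had the highest mean RPKM over the 4 libraries (276), and it ranked 64 of all 12767 genes. Ccn1 followed with 203 and Axl with 190, and their ranks were 96 and 105. Amotl2 (60.2), Ankrd1 (39.3) and Ccn4 (21.7) formed a middle tier, and Yap1 (8.88), Lats2 (7.67), Tead1 (6.82) and Wwtr1 (5.63) were the lowest. The CCN genes, Amotl2, Ankrd1 and Axl were thus read at a higher level per kilobase than the coactivators, Tead1 and Lats2. Lats2, although also used as a readout of the pathway, lay below Yap1. The span between the highest and the lowest library was 5.44-fold for Ccn2 and 4.73-fold for Ccn4, compared with 2.09-fold for Ccn1 and 1.39-fold for Axl. In the deposited RPKM, miR-9-LOF was the lowest of the 4 libraries for 8 of the 10 genes. For Amotl2 and Axl it was TGFB1 with miR-9-LOF. This was not counted over all genes, whose median log2 ratio of miR-9-LOF over Ctr was -0.17. The lowest library of Lats2 and Axl depended on the scale. Under 4 of the other scalings, Lats2 in blocked cells was lower with TGFB1 than without it (log2 ratio -0.027 to -0.006). Axl was lowest in TGFB1 with Rn45s alone taken out of the library totals, with Rn45s, Mir6236 and Lars2 taken out, and with upper-quartile scaling. Its log2 ratio of TGFB1 with miR-9-LOF over TGFB1 was then 0.02, 0.15 and 0.01, in that order.

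**Figure D1:**
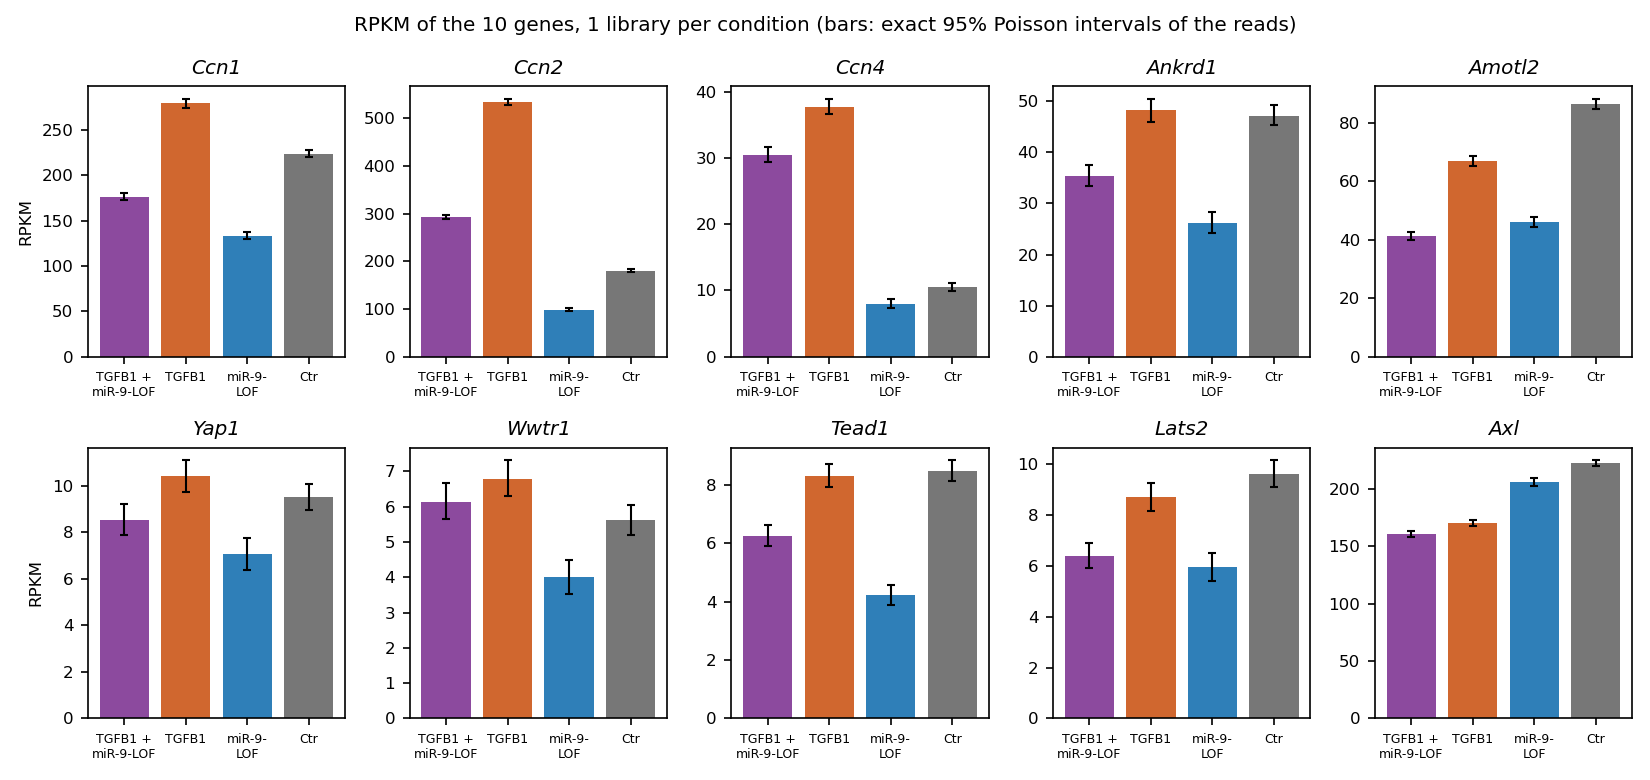
Each panel gives the RPKM of 1 gene (y axis, from 0) in the libraries TGFB1 with miR-9-LOF, TGFB1, miR-9-LOF and Ctr (x axis, 1 library each), and the error bars are exact 95% Poisson intervals of the reads. Ccn2 reached 534 RPKM in TGFB1 and 98.1 RPKM in miR-9-LOF, whereas Axl stayed between 160.4 and 222 RPKM.

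The reads counted on all transcripts summed to 19017357 in TGFB1 with miR-9-LOF, 21805102 in TGFB1, 14718397 in miR-9-LOF and 27413486 in Ctr, and the 10 genes took 0.236% of them in TGFB1 with miR-9-LOF, 0.341% in TGFB1, 0.188% in miR-9-LOF and 0.264% in Ctr. Rn45s, the ribosomal RNA precursor, took 21.4% of the reads in TGFB1 with miR-9-LOF and 27.4% in miR-9-LOF, compared with 15.3% in TGFB1 and 17.9% in Ctr. Together with Mir6236 and Lars2 it took 28.9% in TGFB1 with miR-9-LOF, 16.4% in TGFB1, 34.1% in miR-9-LOF and 19.2% in Ctr. The part that these reads play in the RPKM ratios between antagomiRs was addressed by rescaling, and rescaled values are given for the counts past the limit and for the steps. Of 8 fibroblast markers 7 were in the table, and their summed level was 1690 RPKM in TGFB1 with miR-9-LOF, 2256 RPKM in TGFB1, 1415 RPKM in miR-9-LOF and 1795 RPKM in Ctr. Of the epithelial markers 2 of 7 were in the table, with sums from 0.175 to 0.495 RPKM, and of the endothelial markers 1 of 5, with at most 0.115 RPKM. Cd14 and Cd68 were the leukocyte markers in the table (2 of 6), with sums from 4.62 to 6.98 RPKM. In such bulk RNA, fewer cells expressing a gene and less of its RNA per cell cannot be told apart.

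The first comparison asked what the block of miR-9 did without added TGFB1. Ccn1, Ccn2, Ankrd1, Amotl2, Tead1 and Lats2 fell past the limit, which is a log2 ratio of 0.58 either way on RPKM + 1, or 1.49-fold. This was 6 of 10 genes, and 0 of the 10 rose. Of all 9291 genes tested, those averaging at least 1 RPKM in the pair, 6.72% fell and 2.03% rose past the limit. The share of all genes depends on the 1 added, which shrinks the ratios of low genes. With 0.1 added in its place, 1312 of all genes fell, compared with 624, and still 6 of the 10. The median log2 ratio was -0.68 for the 10 genes and -0.17 for all genes.

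Among the CCN ligands, Ccn2, also known as connective tissue growth factor, had 98.1 RPKM in miR-9-LOF and 180.4 RPKM in Ctr. This was a ratio of 0.544 (95% interval 0.524 to 0.565) and a log2 ratio of -0.87. Ccn1, which codes for the matrix protein also called CYR61, had 134 RPKM in miR-9-LOF and 224 RPKM in Ctr, for a ratio of 0.596 (0.575 to 0.618) and a log2 ratio of -0.74. Ccn4, first described as a Wnt-induced secreted protein, had 7.97 RPKM in miR-9-LOF and 10.5 RPKM in Ctr. Its log2 ratio of -0.36 stayed inside the limit. On the deposited scale its ratio of 0.756 had an interval (0.685 to 0.834) that left out 1. With Rn45s, Mir6236 and Lars2 taken out of the library totals, the log2 ratio of Ccn4 was -0.10, and the interval was not recomputed.

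Of the pathway targets, Amotl2, whose product is an angiomotin that holds YAP1 in the cytoplasm, had 45.9 RPKM in miR-9-LOF against 86.5 RPKM in Ctr. Its log2 ratio of -0.90 was the lowest of the 10 and ranked 64 from the bottom of the 9291 genes. Ankrd1, an ankyrin repeat protein of muscle and stretched cells, had 26.3 RPKM in miR-9-LOF and 47.2 RPKM in Ctr, with a log2 ratio of -0.82. Axl, a receptor tyrosine kinase for the ligand GAS6, was the exception among the targets. It had 206 RPKM in miR-9-LOF and 222 RPKM in Ctr, and its ratio of 0.926 (0.907 to 0.944) corresponded to a log2 ratio of -0.11, above the median of all genes.

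The factors and the kinase did not move by the same amount. Tead1 had 4.21 RPKM in miR-9-LOF and 8.48 RPKM in Ctr, a ratio of 0.497 (0.454 to 0.544), which was the lowest ratio of RPKM among the 10 genes. Lats2 had 5.95 RPKM in miR-9-LOF and 9.63 RPKM in Ctr, with a log2 ratio of -0.61 that lay just past the limit and a ratio of 0.618 (0.555 to 0.688). Yap1, with 7.06 RPKM in miR-9-LOF and 9.50 RPKM in Ctr, and Wwtr1, with 3.99 RPKM in miR-9-LOF and 5.61 RPKM in Ctr, had log2 ratios of -0.38 and -0.40. Both coactivators thus stayed inside the limit, and on the deposited scale their intervals (0.662 to 0.832 and 0.617 to 0.819) left out a ratio of 1. With Rn45s, Mir6236 and Lars2 taken out of the library totals, their log2 ratios were -0.12 and -0.17. The intervals were not recomputed on that scale.

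**Figure D2:**
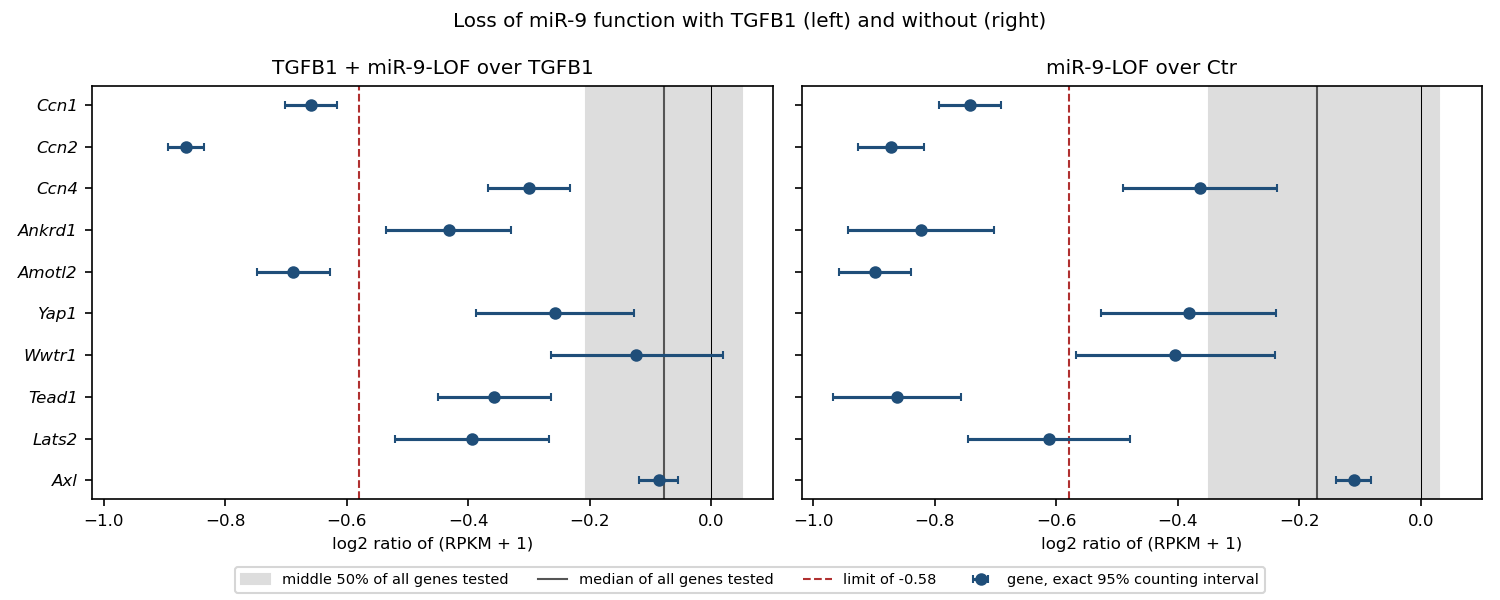
Log2 ratios of RPKM + 1 (x axis) of the 10 genes (y axis) are plotted for TGFB1 with miR-9-LOF over TGFB1 on the left and for miR-9-LOF over Ctr on the right. Points carry exact 95% counting intervals, grey bands span the middle 50% of all genes tested, grey lines mark their median and dashed lines the limit of -0.58. On the right 6 genes lie past the limit, on the left 3 (Ccn1, Ccn2 and Amotl2).

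Scaling moved these values. With the log2 ratios centred on the median of all genes, 4 of the 10 genes remained past the limit, namely Ccn2 (-0.70), Ankrd1 (-0.65), Amotl2 (-0.73) and Tead1 (-0.69). Ccn1 (-0.57) and Lats2 (-0.44) then lay inside it. The split over all genes turned from 624 lower and 189 higher to 175 lower and 374 higher. With Rn45s, Mir6236 and Lars2 taken out of the library totals, 3 genes were past the limit, and these were Ccn2 (-0.58), Amotl2 (-0.61) and Tead1 (-0.64). Over the deposited scale and 5 other scalings, 9 of the 10 genes kept a negative sign, and the exception was Axl, at -0.11 on the deposited scale and between 0.06 and 0.18 on the others.

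**Figure D3:**
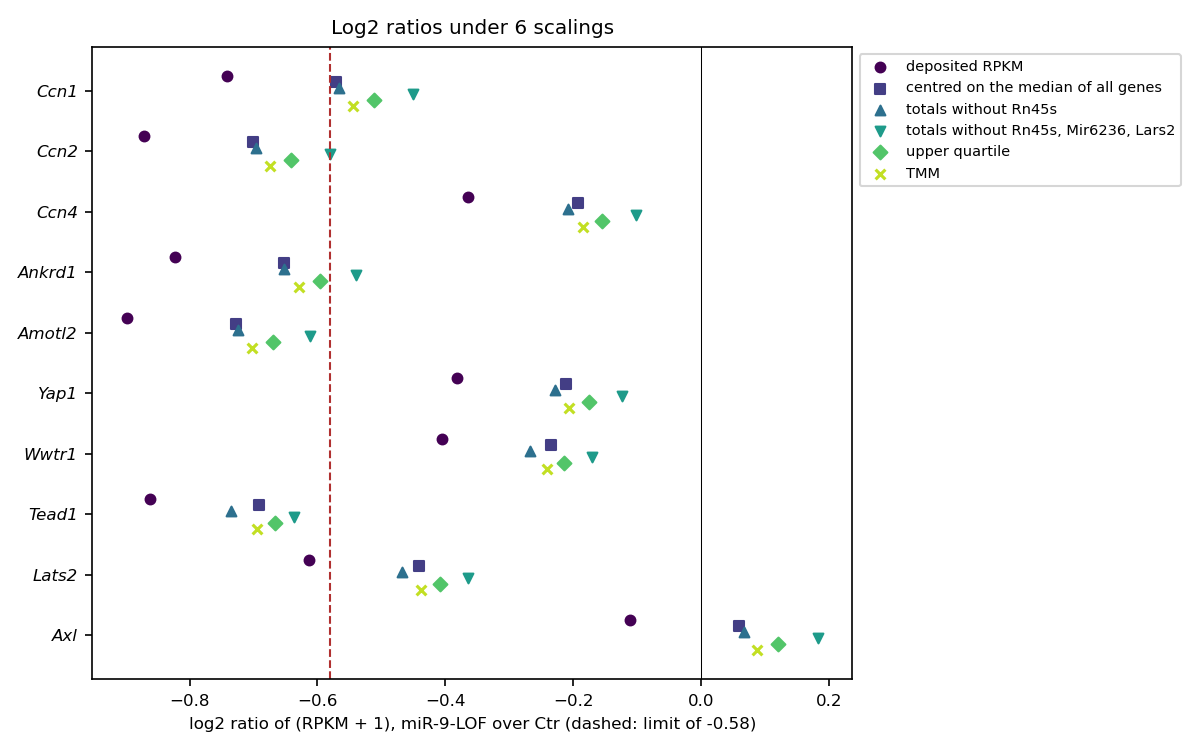
Log2 ratios of miR-9-LOF over Ctr (x axis) are plotted for the 10 genes (y axis) under the deposited RPKM and 5 other scalings, 1 symbol each, with the limit of -0.58 as a dashed line. Ccn2, Amotl2 and Tead1 lie past the limit under all 6, Ankrd1 under 5, and Ccn1 and Lats2 under the deposited RPKM alone.

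The next comparison asked what TGFB1 did within the control antagomiR. Ccn2 and Ccn4 rose past the limit, 2 of 10 genes, and 0 fell. Over all 9527 genes tested, 2.68% rose and 2.92% fell. Ccn4 had 37.7 RPKM in TGFB1 and 10.5 RPKM in Ctr, a ratio of 3.58 (3.36 to 3.80) and a log2 ratio of 1.75, the 6th highest of all genes tested. Ccn2 had 534 RPKM in TGFB1 and 180.4 RPKM in Ctr, a ratio of 2.96 (2.90 to 3.02) and a log2 ratio of 1.56, the 15th highest. These values held between 1.71 and 1.75 for Ccn4 and between 1.51 and 1.57 for Ccn2 over the 6 scalings.

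The other 8 genes stayed inside the limit with TGFB1. Ccn1 had 279 RPKM in TGFB1 and 224 RPKM in Ctr, with a log2 ratio of 0.32, and its ratio of 1.25 (1.22 to 1.28) was below those of Ccn2 and Ccn4. Ankrd1 and Tead1 had intervals that included a ratio of 1, at 1.02 (0.960 to 1.09) and 0.979 (0.920 to 1.04). Amotl2, at 67.0 RPKM in TGFB1 and 86.5 RPKM in Ctr, and Axl, at 170.4 RPKM in TGFB1 and 222 RPKM in Ctr, had log2 ratios of -0.36 and -0.38, and their intervals lay below 1. Yap1 (0.12), Wwtr1 (0.24) and Lats2 (-0.13) completed the range. Of the genes used as YAP-TEAD readouts, Ccn2 alone passed the limit with TGFB1, while Ccn1 and Ankrd1 had values above 0 and Amotl2, Axl and Lats2 below 0, and Ankrd1 changed sign between scalings (-0.02 to 0.04).

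The makeup of the CCN transcripts changed along with the sums. Ccn1, Ccn2 and Ccn4 together held 65.4% of the RPKM of the 10 genes in TGFB1 with miR-9-LOF, 72.7% in TGFB1, 44.5% in miR-9-LOF and 51.6% in Ctr. Ccn2 was below Ccn1 without TGFB1, with a ratio of their RPKM of 0.735 in miR-9-LOF and 0.805 in Ctr. It was above Ccn1 with TGFB1, at 1.66 in TGFB1 with miR-9-LOF and 1.91 in TGFB1. These are ratios within a library, which no scaling of the library alters. Ccn1 over Ccn4 was 5.81 in TGFB1 with miR-9-LOF, 7.41 in TGFB1, 16.8 in miR-9-LOF and 21.3 in Ctr.

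With TGFB1 present, the block of miR-9 again came with lower levels. Ccn1, Ccn2 and Amotl2 fell past the limit, 3 of 10 genes, and 0 rose, while 1.48% of 9535 genes fell and 2.06% rose. The median log2 ratio was -0.38 for the 10 genes and -0.08 for all genes. Ccn2 had 293 RPKM in TGFB1 with miR-9-LOF and 534 RPKM in TGFB1, a ratio of 0.548 (0.537 to 0.560) and a log2 ratio of -0.87 that ranked 23 from the bottom. Amotl2 had 41.2 RPKM in TGFB1 with miR-9-LOF and 67.0 RPKM in TGFB1 (log2 ratio -0.69), and Ccn1 had 177 RPKM in TGFB1 with miR-9-LOF and 279 RPKM in TGFB1 (-0.66).

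Ankrd1 (35.5 RPKM in TGFB1 with miR-9-LOF, 48.2 RPKM in TGFB1), Lats2 (6.39 RPKM in TGFB1 with miR-9-LOF, 8.72 RPKM in TGFB1) and Tead1 (6.26 RPKM in TGFB1 with miR-9-LOF, 8.31 RPKM in TGFB1) had log2 ratios of -0.43, -0.39 and -0.36, inside the limit. Ccn4, with 30.4 RPKM in TGFB1 with miR-9-LOF and 37.7 RPKM in TGFB1, had -0.30. Yap1, with 8.54 RPKM in TGFB1 with miR-9-LOF and 10.4 RPKM in TGFB1, had -0.26. Nearest to 0 were Wwtr1, with 6.15 RPKM in TGFB1 with miR-9-LOF and 6.79 RPKM in TGFB1, at -0.12 with an interval of the ratio (0.808 to 1.01) that included 1, and Axl, with 160.4 RPKM in TGFB1 with miR-9-LOF and 170.4 RPKM in TGFB1, at -0.09. Ccn2 was past the limit under all 6 scalings, from -0.87 to -0.63, Amotl2 under 5 and Ccn1 under 2. With Rn45s, Mir6236 and Lars2 taken out of the totals, Ccn2 alone was past it. Wwtr1 and Axl changed sign between scalings, with values up to 0.08 and 0.15. Centring on the median of all genes gave 83 lower and 233 higher genes in the whole table, in place of 141 and 196.

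Within the blocked cells, TGFB1 gave a step in the same 2 genes as in the control cells. Ccn4 had 30.4 RPKM in TGFB1 with miR-9-LOF and 7.97 RPKM in miR-9-LOF, a ratio of 3.82 (3.49 to 4.19), and Ccn2 had 293 RPKM in TGFB1 with miR-9-LOF and 98.1 RPKM in miR-9-LOF, a ratio of 2.98 (2.87 to 3.10). The log2 ratio was 1.81 for Ccn4 and 1.57 for Ccn2. Past the limit were 2 of 10 genes upward and 0 downward, whereas 7.13% of 9345 genes rose and 2.48% fell. Centred on the median, 483 genes rose and 298 fell, in place of 666 and 232. Wwtr1 (0.52), Tead1 (0.48), Ankrd1 (0.42) and Ccn1 (0.40) lay above 0 but inside the limit. With 0.1 added to RPKM in place of 1, Wwtr1 also rose past it, which made 3 of the 10 genes, while 1306 of all genes rose.

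The difference between the TGFB1 step with and without miR-9-LOF was 0.01 for Ccn2 and 0.06 for Ccn4, in log2 units. In RPKM, TGFB1 added 194 to Ccn2 with miR-9-LOF and 353 with the control antagomiR, and it added 22.5 to Ccn4 with miR-9-LOF and 27.2 with the control antagomiR. Under the 5 other scalings the log2 difference was between -0.13 and -0.05 for Ccn2 and between -0.05 and 0.03 for Ccn4. The level after TGFB1 was lower with miR-9-LOF, as was the level without it. On the deposited scale the difference was largest for Tead1 (0.50), followed by Ankrd1 (0.39) and Wwtr1 (0.28), and these 3 exceeded the upper quartile of all genes (0.27). All 10 genes had a difference above 0, as did 61.7% of 9467 genes, and the medians were 0.17 and 0.08. With the upper quartile of counts or TMM as the scale 6 of the 10 lay above 0, and with centring or either of the totals without Rn45s 8 did. Tead1 kept a difference of 0.39 to 0.48 under these 5 scalings, and Ankrd1 kept 0.26 to 0.34. The TGFB1 step with miR-9-LOF and the loss after miR-9-LOF both use the miR-9-LOF library, which was the shallowest.

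**Figure D4:**
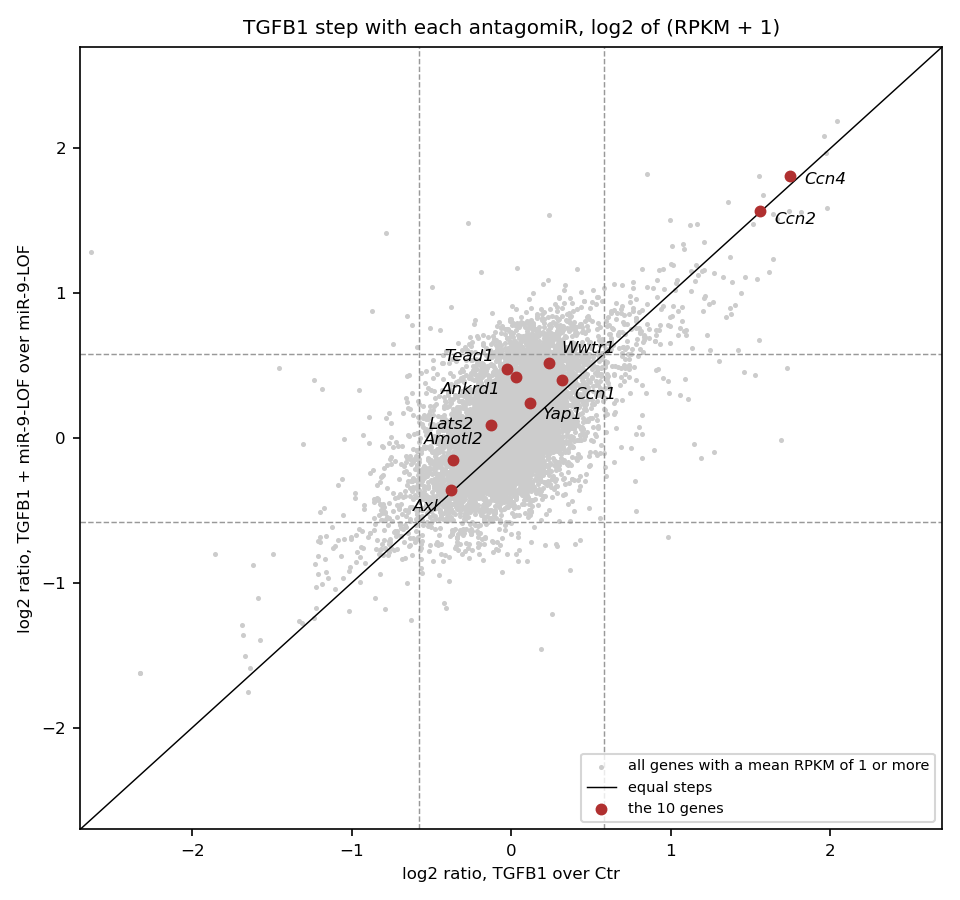
The log2 ratio of TGFB1 with miR-9-LOF relative to miR-9-LOF alone (y axis) is plotted against that of TGFB1 over Ctr (x axis), with the 10 genes in red, all genes averaging at least 1 RPKM in grey, the line of equal steps and dashed limits at -0.58 and 0.58. Ccn2 (1.57 with miR-9-LOF, 1.56 with the control antagomiR) and Ccn4 (1.81 and 1.75, likewise) lie near the line past both limits, and Tead1 (0.48 and -0.03, likewise) lies farthest above it among the 10.

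Set against Ctr, the combined treatment left Ccn4 and Ccn2 higher and Amotl2 lower. Ccn4 had 30.4 RPKM in TGFB1 with miR-9-LOF and 10.5 RPKM in Ctr (log2 ratio 1.45), and Ccn2 had 293 RPKM in TGFB1 with miR-9-LOF and 180.4 RPKM in Ctr (0.69). Amotl2 had 41.2 RPKM in TGFB1 with miR-9-LOF and 86.5 RPKM in Ctr, a ratio of 0.477 (0.458 to 0.496) and a log2 ratio of -1.05. These 3 calls, 2 upward and 1 downward of 10, held under all 6 scalings. Over 9541 genes, 2.76% rose and 4.65% fell, and centring gave 332 and 302 genes in place of 263 and 444. Ccn1 (-0.34), Ankrd1 (-0.40), Tead1 (-0.39), Lats2 (-0.52) and Axl (-0.47) were below 0 and inside the limit. The comparisons with Ctr share the Ctr library, so their values stand side by side and are not independent.

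The wider pathway was read through 7 gene lists. Of the CCN family 5 of 6 genes were in the table. Ccn3 had 4.20 RPKM in miR-9-LOF and 3.95 RPKM in Ctr, and Ccn5 had 14.2 RPKM in miR-9-LOF and 16.0 RPKM in Ctr, so neither passed the limit. With TGFB1, Ccn5 had 24.5 RPKM against 16.0 RPKM in Ctr, a log2 ratio of 0.58 that lay on the limit and past it by a small margin. It was past the limit under 3 of the 6 scalings and inside it under the other 3 (0.54 to 0.59). Ccn3 had 2.99 RPKM in TGFB1 and 3.95 RPKM in Ctr, a log2 ratio of -0.31 inside the limit. In blocked cells Ccn3 fell with TGFB1, to 2.35 RPKM in TGFB1 with miR-9-LOF against 4.20 RPKM in miR-9-LOF (-0.64), and this call held under all 6 scalings (-0.78 to -0.64). Of the TEAD factors and coactivators 8 were tested. Besides Tead1, Vgll3, a TEAD cofactor, fell after miR-9-LOF (2.08 RPKM against 4.12 RPKM in Ctr, log2 ratio -0.73, inside the limit once centred), while Tead2 (-0.09), Tead3 (-0.30) and Tead4 (-0.16) did not pass. With TGFB1, 0 of these 8 passed, while 2.68% of all genes rose and 2.92% fell.

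Of 23 Hippo kinases and regulators tested, 10 fell and 0 rose after miR-9-LOF, with a median of -0.50 beside -0.17 for all genes, of which 6.72% fell. The 7 fibroblast markers had a similar median of -0.51, and 2 of them fell. Of the Hippo genes that fell, Lats2 and Amotl2 were 2 of the 10. The lowest was Fat1, a giant cadherin upstream of the kinases, with 23.4 RPKM in miR-9-LOF against 45.7 RPKM in Ctr (-0.94). Stk3, the MST2 kinase that activates LATS, had 1.76 RPKM in miR-9-LOF against 3.66 RPKM in Ctr (-0.76), and Amot had -0.72. Wwc1, which codes for the scaffold KIBRA, had -0.70, Wwc2 had -0.68, Map4k4 had -0.64, Taok1 had -0.62 and Fat4 had -0.59. Under centring 3 of the 23 (Stk3, Amotl2 and Fat1) remained past the limit, beside 1.88% of all genes, and 0 of the fibroblast markers. With TGFB1, 1 of 24 fell, Wwc1, at 9.12 RPKM in TGFB1 against 15.4 RPKM in Ctr (-0.70), and 0 rose. Of all genes 2.92% fell and 2.68% rose.

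A signature of 25 YAP-TEAD target genes, in which Tead1 and 6 more of the 10 genes are included, had 22 tested members. After miR-9-LOF 10 fell and 0 rose, with a median of -0.49, while 6.72% of all genes fell. The fibroblast markers had a median of -0.51. Much of this count repeats genes reported above. The 15 tested genes of the signature that are not among the 10 had a median of -0.39, and 4 of them fell. These were F3, the tissue factor of clotting (-0.90), Ccdc80 (-0.88), Crim1 (-0.87) and Myof (-0.77). Under centring 8 of the 22 remained, these 4 included, beside 1.88% of all genes. With Rn45s, Mir6236 and Lars2 taken out of the totals 6 fell, without Ankrd1 and Myof, and Foxf2 rose, beside 1.46% and 5.96% of all genes. With the upper quartile as the scale 7 fell and Foxf2 rose, beside 1.71% and 4.45%. Ajuba (0.20), Fjx1 (0.22) and Foxf2 (0.40) lay above 0. With TGFB1 3 of 22 rose, Ccn2 together with Gadd45a (0.75) and Tgfb2 (0.60), and 0 fell. The shares of all genes were 2.68% upward and 2.92% downward. The signature's median was 0.11, beside -0.01 for all genes.

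Of the receptors that CCN proteins bind, 7 were tested after miR-9-LOF and 5 fell, with 0 rising, while 6.72% of all genes fell. Itgb1, the shared beta subunit of many integrins, had 34.4 RPKM in miR-9-LOF and 62.1 RPKM in Ctr (-0.83). Lrp6 (-0.70), Sdc4 (-0.69), Itgav (-0.68) and Lrp1 (-0.66) followed. Under centring Itgb1 alone remained, and with Rn45s, Mir6236 and Lars2 taken out of the totals 0 of the 7 were past the limit. With TGFB1, Itgb3 (2.34 RPKM in TGFB1, 0.437 RPKM in Ctr, log2 ratio 1.22) and Itgb5 (80.6 RPKM in TGFB1, 46.3 RPKM in Ctr, 0.79) rose and the proteoglycan Sdc4 (47.1 RPKM in TGFB1, 71.2 RPKM in Ctr, -0.59) fell, of 8 tested. Over all genes 2.68% rose and 2.92% fell. Sdc4 was inside the limit once centred. Around Axl, the ligand gene Pros1 fell after miR-9-LOF (1.72 RPKM against 3.66 RPKM in Ctr, -0.78, past the limit under all 6 scalings, the nearest to 0 being -0.61), as 1 of 4 genes of the TAM receptor list, and with TGFB1 0 of 4 passed. The shares of all genes were 6.72% falling after miR-9-LOF, and 2.68% rising and 2.92% falling with TGFB1.

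Early TGF-beta targets, a list that holds Ccn2 itself, were read in the same libraries. Of 8 tested, Pmepa1 (1.74), Skil (0.77) and Ccn2 were among those that rose with TGFB1, and Id1 (-1.31), Id2 (-1.23) and Id3 (-1.22), which code for inhibitors of DNA binding, fell. Among all genes tested, 2.68% rose and 2.92% fell with TGFB1. Smad7, an inhibitor of the receptor signal, had 7.85 RPKM in TGFB1 and 7.48 RPKM in Ctr (0.06), inside the limit. After miR-9-LOF 2 of the 8 fell, beside 6.72% of all genes. These were Ccn2 and Id2 (-0.71), and Id2 was inside the limit once centred.

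**Figure D5:**
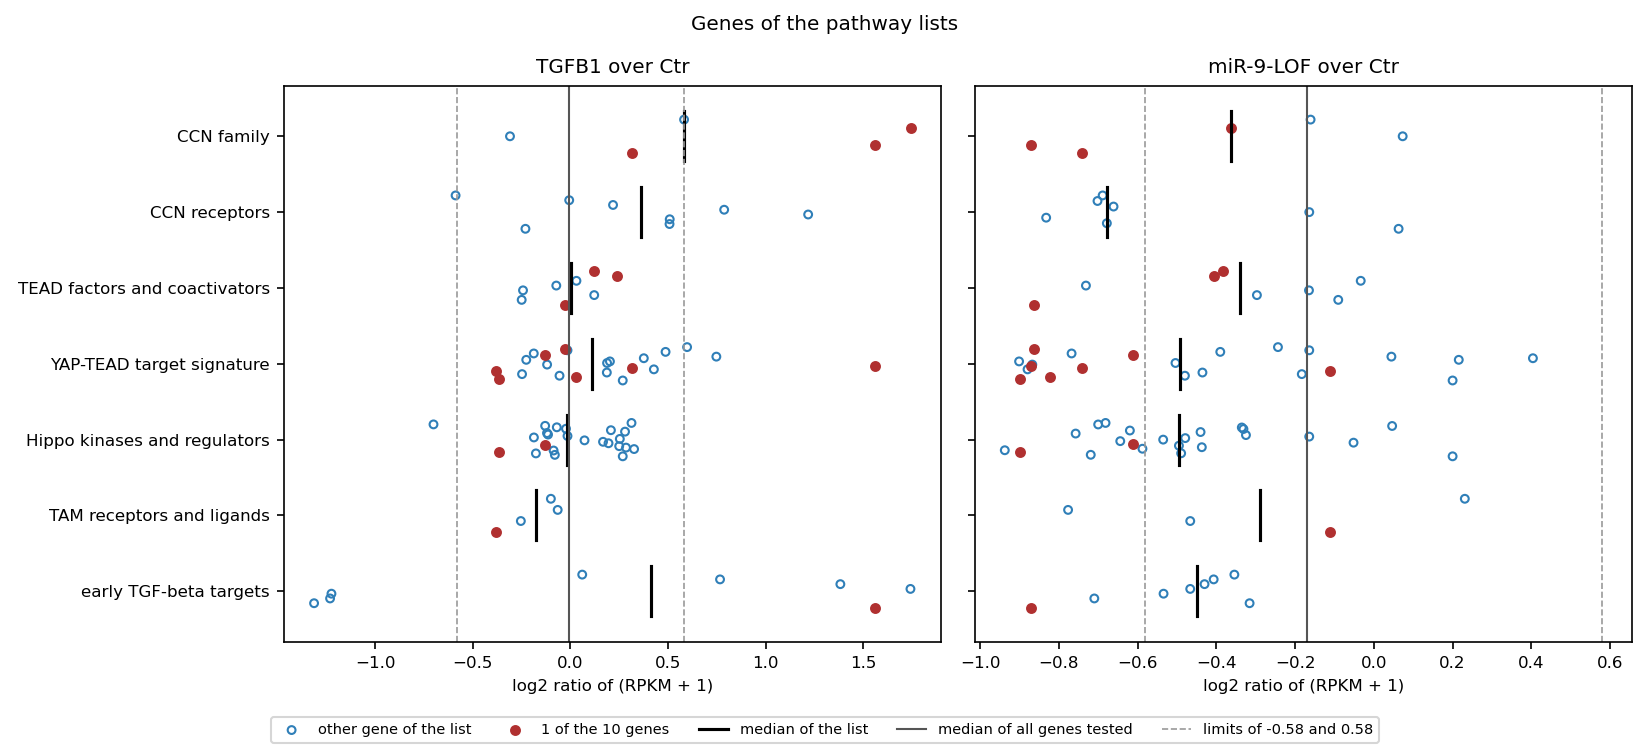
Log2 ratios (x axis) are plotted for the tested genes of 7 lists (y axis) in TGFB1 over Ctr on the left and in miR-9-LOF over Ctr on the right, with the 10 genes filled and other genes open. Black bars mark the list medians, grey lines the median of all genes and dashed lines the limits of -0.58 and 0.58. On the right the Hippo regulators centre at -0.50 and the CCN receptors at -0.68, against -0.17 for all genes.

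Likeness to Ccn2 and to Ccn1 was measured as the distance over the 3 log2 ratios to Ctr among 4401 protein-coding genes averaging at least 5 RPKM. Nearest to Ccn2 was Fbn1, which codes for fibrillin-1 of elastic microfibrils (distance 0.22). Fbn1 had 66.9 RPKM in TGFB1 with miR-9-LOF, 100.4 RPKM in TGFB1, 20.9 RPKM in miR-9-LOF and 38.6 RPKM in Ctr. Chst11, a chondroitin sulfotransferase gene, was also among the 3 nearest (0.51). Nearest to Ccn1 were Pdlim5 (0.10), H60b (0.12) and Lrp1 (0.13), the last of which is 1 of the CCN receptors listed above. Each distance rests on 4 libraries and on the deposited scale, and was not recomputed under the others.

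The transcripts of a symbol gave nearly the same values because they share most of their exons and a read counts for each of them. For Ccn4 the representative is annotated as non-coding, and its coding transcript had log2 ratios of 1.75 for TGFB1 over Ctr and -0.37 for miR-9-LOF over Ctr. The exception was a short transcript of Lats2 (900 nt), which had 52 reads in miR-9-LOF and 173 reads in Ctr, with a log2 ratio of -0.70. With TGFB1 it had 88 reads and a log2 ratio of -0.55, compared with -0.13 for the long one. Counting ignored the strand, and the exons of Ccn2 (chr10:24595442-24598683 in mm10) overlap those of Gm15270 on the opposite strand. Gm15270 was listed with 52.8 RPKM in TGFB1 with miR-9-LOF, 95.3 RPKM in TGFB1, 17.9 RPKM in miR-9-LOF and 29.4 RPKM in Ctr, the same order as Ccn2, and the reads of the pair cannot be told apart where they overlap. Yap1 overlaps Gm20416 on the opposite strand and Lats2 overlaps Gm49361 on the same strand.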

How the data were processed

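Total RNA of MLg cells was sequenced in 4 libraries, 1 for each condition, with groups read from the titles of the samples. The authors trimmed single-end reads with Trimmomatic (0.36), aligned them to mm10 with Bowtie2 and counted exon reads per RefSeq transcript with HOMER on both strands. The deposited counts are whole reads for each transcript. RPKM was computed by the authors in edgeR with 1 added to each value, and this 1 was subtracted here. For Bowtie2, HOMER and the authors' edgeR the version is "not given in the sources used here". The deposited log2 fold changes (3 columns, each a condition over Ctr) and the summed RPKM were not used. Transcript lengths were used as deposited.

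Log2 ratios of RPKM + 1 were computed in Python 3.11.15 (pandas 2.3.3, scipy 1.17.1) for genes averaging at least 1 RPKM in the pair, with the limit of 0.58 from the study's methods and exact 95% binomial intervals of the RPKM ratio. A log2 ratio with 1 added understates changes of low genes. TMM and upper-quartile factors came from edgeR 4.0.16 in R 4.3.3. The calculation was tested on simulated counts. With 1 library in each condition no p-value was computed. The 10 genes, the gene lists and the markers were chosen with earlier results of these data known. Named are the 10 genes, list genes past the limit and, for contrast, some inside it that were chosen after their values were seen, and the 3 nearest genes to Ccn2 and Ccn1, of which 1 is not reported here. Other scalings, a pseudocount of 0.1, a limit of 1, other transcript choices and no filter were tried as alternatives. Promoter and microRNA sequences are from RefSeq on GRCm38.p6.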

Additional observations from a re-analysis of the deposited data

Results flagged for a closer look

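Tead1 and Lats2 had TGFB1 steps of opposite sign with the 2 antagomiRs, and the difference was not tested because each condition had 1 library. For Tead1 the log2 ratio was 0.48 for TGFB1 with miR-9-LOF relative to miR-9-LOF alone and -0.03 for TGFB1 over Ctr, a difference of 0.50. For Lats2 the values were 0.09 and -0.13, a difference of 0.22. The interval of the ratio included 1 for TGFB1 over Ctr in Tead1 (0.920 to 1.04) and for the step with miR-9-LOF in Lats2 (0.950 to 1.21). Under 4 of the other scalings the Lats2 step with miR-9-LOF also lay below 0.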

How the results depend on the processing

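Counts of the 10 genes past the limit were recomputed under 10 alternatives. After miR-9-LOF over Ctr (6 in the report) the count was 3 with library totals without Rn45s, Mir6236 and Lars2, and 0 with a limit of 1. For TGFB1 with miR-9-LOF over TGFB1 (3 in the report) it was 1 and 0 under the same alternatives. The other alternatives kept these counts and those of the remaining comparisons within 1.5 times. The number of genes with a larger TGFB1 step under miR-9-LOF was 10 in the report, 6 with the upper quartile and 6 with the trimmed mean of log ratios. Of 450 recomputed log2 ratios of single genes, 317 stayed within the counting interval, 133 left it, and 0 past the limit changed sign. The whole table depends on the alternatives as well: with a pseudocount of 0.1, 1312 genes fell after miR-9-LOF over Ctr in place of 624, and with a limit of 1 there were 36. No paired analysis was possible because each condition had 1 library and no test was made. Depth limits low genes most in the miR-9-LOF library, where Wwtr1 rests on 274 reads.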
